A study of Mus musculus with 2 samples.

Results

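The urea cycle and tyrosine breakdown are both liver pathways that dispose of amino acids. In the urea cycle, carbamoyl phosphate synthetase 1 (Cps1) and ornithine transcarbamylase (Otc) work in the mitochondrion, and argininosuccinate synthetase (Ass1), argininosuccinate lyase (Asl) and arginase 1 (Arg1) complete the cycle in the cytosol. Arginase 2 (Arg2) is the mitochondrial arginase and is found mainly outside the liver. Tyrosine is taken apart in turn by tyrosine aminotransferase (Tat), hydroxyphenylpyruvate dioxygenase (Hpd), homogentisate dioxygenase (Hgd), maleylacetoacetate isomerase (Gstz1) and fumarylacetoacetate hydrolase (Fah), whose loss causes hereditary tyrosinemia. Mature hepatocytes carry both pathways in full, most of the urea cycle around the portal veins, while the fetal liver builds them up around birth. The 10 genes described here are these enzymes without Gstz1. They were chosen by the gene name given for each probe, and they account for 13 of the 41158 gene probes on the array and 10 of 20053 named genes.

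The cells were expandable hepatoblasts, liver progenitors of C57BL/6 mice cultured with EGF, CHIR99021 (which inhibits the kinase GSK3 and so turns on Wnt signalling), E-616452 (which blocks the receptor of TGF-beta), LPA and S1P on Matrigel or laminin. Total RNA from passage 5 and from passage 20 was hybridised to 1 array each. Both cultures had the same strain and the same listed medium, but the labels state that they came from independent experiments and not which coating each had, so passage, experiment and coating cannot be told apart. Every difference therefore compares 2 arrays, has no replicate check and carries no p-value. Values are processed Cy3 signals in arbitrary units, with the scanner software's own error for the spot, and differences are log2 values at passage 20 minus passage 5 after each array was set to its 75th percentile. "Well above background" is that software's flag. The lowest signal with this flag was 109 at passage 5 and 94.6 at passage 20.

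The hepatoblast label was checked on a list of progenitor and fetal liver markers, of which 11 of 14 were measured, that is, well above background at passage 5, passage 20 or both. Afp, the fetal counterpart of albumin, had signals of 6348 and 5316 at passages 5 and 20, and the liver transcription factor gene Hnf4a 5113 and 3478. After scaling, Afp differed by 0.09 log2 and Hnf4a by -0.21. Of the 11, 2 were at least 2-fold higher and 2 lower at passage 20 (36.4% together, against 9.00% of all measured genes). With 11 genes such a share is imprecise. The fetal glypican gene Gpc3 was lower by a factor of at least 9.49 and the adhesion gene Epcam by 2.24, while Cdh1 (E-cadherin) was 2.89-fold and Prox1 2.02-fold higher. Prox1 was dim, with signals of 126 and 200, the first near the lowest flagged signal at passage 5 (109). Dlk1, H19 and Igf2, all fetal genes, lacked the flag at both passages. Of 10 mature hepatocyte genes 3 were measured: Trf (transferrin), with signals of 42230 and 16968 and 1.96-fold lower, Apob (apolipoprotein B), with 8985 and 14669 and 2.08-fold higher, and Apoa1 at passage 5 only. Albumin (Alb) and transthyretin (Ttr) were among the 7 that lacked the flag.

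The probes that carry the results are shown as the files list them, 5′ to 3′, so that a reader can see which stretch of each mRNA was read. Those of Fah, Asl and Ass1 gave the values measured on both arrays, and those of Arg1 and Arg2 stand for the arginases. Capitals in the Ass1 probe mark the 20 of 60 bases that it shares with the other Ass1 probe.
Fah: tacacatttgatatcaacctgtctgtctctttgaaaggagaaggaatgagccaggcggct
Asl: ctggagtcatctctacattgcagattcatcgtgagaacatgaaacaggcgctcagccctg
Ass1: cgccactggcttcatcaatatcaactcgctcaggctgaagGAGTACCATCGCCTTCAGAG
Arg1: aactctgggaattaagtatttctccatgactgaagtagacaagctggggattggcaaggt
Arg2: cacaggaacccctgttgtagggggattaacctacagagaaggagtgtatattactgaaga
The files place the Fah probe at chr7:91740916-91741732, the Asl probe at chr5:130487964-130488549 and the Ass1 probe at chr2:31374279-31375918 (build mm9). These stretches of 817, 586 and 1640 bases are longer than the 60-base probes, so each probe lies across a splice junction of its mRNA. The Arg1 probe, at chr10:24636194-24636253, and the Arg2 probe, at chr12:80252972-80253031, each lie in 1 block of 60 bases. Coordinates of Fah, Asl and Arg1 are listed in descending order and those of Ass1 and Arg2 in ascending order. The longest run that the arginase probes share is 7 bases, so they read different sequence. No gene annotation of build mm9 was used here, and the exon of each probe is not given.

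Both pathways were measured only in part. Of the 10 enzymes, 3 were well above background on both arrays (Ass1, Asl and Fah), 1 at passage 5 only (Otc) and 6 on neither (Cps1, Arg1, Arg2, Tat, Hpd and Hgd). Thus the 2 cytosolic enzymes that make and split argininosuccinate were measured at both passages, and of the 4 tyrosine breakdown members Fah was. The share measured was 40.0%, against 58.8% of all named genes. A gene that is not well above background may still be transcribed at a level that these arrays cannot read.

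**Figure D1:**
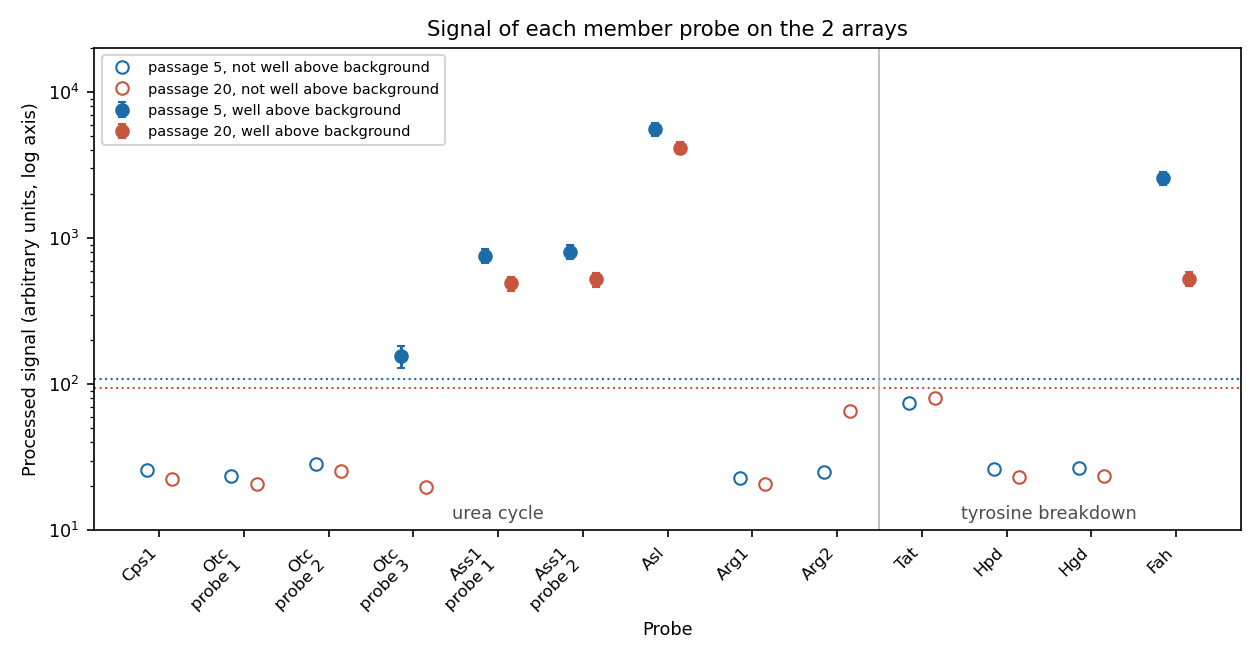
Processed signal of the 13 member probes (log axis, arbitrary units) at passage 5 and passage 20. Error bars are the scanner software's error for a spot that was well above background (filled). Open circles are spots that were not, and dotted lines mark the lowest signal with that flag on each array. Only Asl, Ass1, Fah and probe 3 of Otc rise over the lines, and Fah has the widest gap between passages among probes measured on both arrays.

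Fah was the 1 enzyme that differed at least 2-fold. Its signal was 2566 ± 258 at passage 5 and 527 ± 56.0 at passage 20 (software error of 1 spot each). The passage 5 culture was high and the passage 20 culture low, well apart on the error of the spots. After scaling, Fah was 3.83-fold lower at passage 20, a difference of -1.94 ± 0.21 log2, and the software errors span 3.31-fold to 4.43-fold. No probe of the array other than this one is named for Fah, so the value rests on 1 spot per array. The error of a spot does not hold the variation between cultures. In RNA of a whole culture, fewer cells with Fah and less Fah RNA per cell cannot be told apart.

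The repeat spots of other probes give a second measure of that technical error. Of 245 probes printed 10 times, 55 had signals from 400 to 6000 on both arrays, which covers Fah, Asl and Ass1. The SD of a difference between single spots had a median of 0.08 log2 among them, a 95th percentile of 0.18 and a maximum of 0.29. The Fah difference exceeds the largest of these SDs. In size, the Ass1 difference of -0.28 and the Asl difference of -0.08 are both smaller than that largest SD. The percentiles are of SDs and not of differences, so they give no rank for either enzyme.

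Among all 11797 named genes measured at 1 or both passages, 9.00% were called at least 2-fold different, with 385 (3.26%) higher and 677 (5.74%) lower. Of the 4 measured members 1 was called, and it was lower. With 4 genes this share cannot be set apart from the background. Of 10748 genes measured on both arrays, 93 (0.87%) had a difference as low as that of Fah or lower. Among the 1840 of them whose passage 5 level lay within 0.5 log2 of that of Fah, this share was 1.25%.

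**Figure D2:**
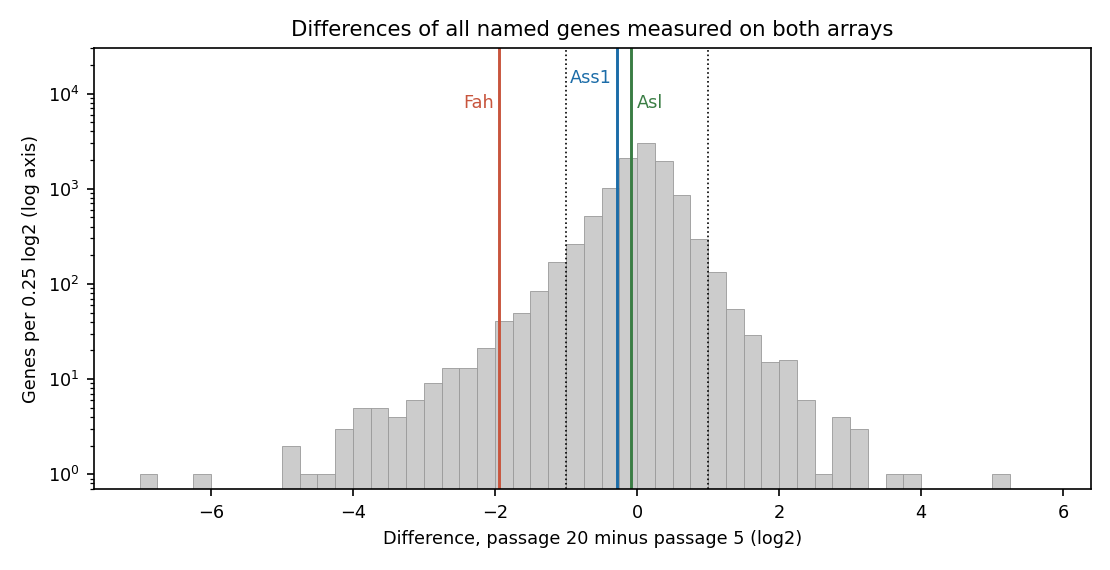
Number of genes (log axis) by their difference between passage 20 and passage 5 (log2), for the 10748 named genes well above background on both arrays. Dotted lines mark 2-fold. Fah, at -1.94, lies in the lower tail with 0.87% of genes at or below it, while Ass1 and Asl lie in the main body.

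The enzymes on either side of argininosuccinate differed by less than 2-fold between the arrays. Ass1, which joins citrulline to aspartate, had a signal of 807 ± 84.6 at passage 5 and 524 ± 57.1 at passage 20 by its brighter probe. Its second probe, which overlaps the first, read 758 ± 79.5 and 491 ± 53.5. Both probes were lower at passage 20 by 0.28 log2 (1.21-fold), with a software error of 0.22 log2, so the gap was 1.27 times its error for the brighter probe and 1.28 for the second. Since the probes share a stretch of sequence they are not independent readings of Ass1.

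Asl, which splits argininosuccinate into arginine and fumarate, had signals of 5606 ± 561 at passage 5 and 4162 ± 417 at passage 20. The scaled difference was -0.08 ± 0.20 log2, smaller than its error. Of the genes measured on both arrays, 82.6% differed by at least as much as Asl in either direction, and 48.2% by at least as much as Ass1. Neither enzyme was called different.

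Otc, which makes citrulline and lies on the X chromosome, gave readings that depended on the probe. One probe had a signal of 157 ± 27.4 at passage 5, well above background, and 19.7 at passage 20, where the software put a surrogate in place of a signal that did not exceed noise. Because the second value is no measurement, only a bound can be given: Otc was at least 1.30-fold lower at passage 20, which does not reach 2-fold. This bound takes the signal of the probe at passage 5 as read and leaves out its error. Of 153 spots of a negative control sequence, 1 was at least as bright as this probe at passage 5, and 3 carried the flag, the brightest with a signal of 285. The other Otc probes stayed at the surrogate on both arrays, with 23.7 and 20.8 for one and 28.7 and 25.5 for the other. The probe with signal lies at chrX:9893244-9893303 and is assigned to a cDNA clone, whereas the silent probes, at chrX:9853843-9877490 and chrX:9897267-9897326, are assigned to the RefSeq transcript. Whether the RNA read at passage 5 was the mRNA of the enzyme was not tested.

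The first enzyme of the urea cycle and the arginases lacked the flag at both passages. Cps1, the entry and rate-limiting step, had signals of 25.8 at passage 5 and 22.6 at passage 20, both surrogate values. Of the 153 negative control spots, 53 were as bright or brighter at passage 5 and 57 at passage 20. Arg1, which releases urea from arginine, was likewise at the surrogate, with 22.8 and 20.6. It was no brighter than most negative control spots, 128 and 108 of which reached it.

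Arg2 and Tat were the members closest to the limit. Arg2 had a signal of 25.1 ± 22.4 at passage 5 and 65.7 ± 20.4 at passage 20. Both were positive by the software's test against background, but neither carried the flag. At passage 20, 3 of the 153 negative control spots reached the signal of Arg2, against 69 at passage 5. Tat, the first and hormone-controlled step of tyrosine breakdown, read 74.6 ± 23.4 at passage 5 and 79.9 ± 21.0 at passage 20, and 3 and 2 negative control spots reached it. No fold is given for genes that lacked the flag at both passages.

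The middle enzymes of the tyrosine chain were at the noise of the arrays. Hpd, the target of the drug nitisinone, read 26.2 and 23.3 and Hgd, the enzyme missing in alkaptonuria, 26.7 and 23.4, all at the surrogate. Neither has another probe, so these spots are the whole measurement. Gstz1, the isomerase that feeds Fah, was measured on both arrays, with signals of 1636 and 1412 and a difference of 0.13 log2. Of the last pair of enzymes of the chain, Gstz1 was thus within 2-fold and Fah 3.83-fold lower.

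The differences of the measured members were read under other ways of processing the arrays. Fah was at least 2-fold lower in each of 12 settings, from 3.11-fold with normexp background correction to 4.75-fold with median centring. The 12 include the one reported. Settings that change only the filter or average over probes could not move Fah, whose 1 probe carried the flag on both arrays. The median of all measured genes was 0.07 log2 as reported, -0.14 when the arrays were scaled to external spike-in RNA and -0.24 with median centring. Relative to the median of all genes in the same setting, Fah lay at -2.01 as reported and between -2.02 and -1.68 over the settings that keep the filter on dim probes. On the same footing Ass1 lay between -0.37 and -0.23 and Asl between -0.19 and -0.13. Before the median of all genes is taken off, Ass1 ranged from -0.59 to -0.19 log2 and Asl from -0.39 to -0.08. The lowest of these values came with median centring. Over all genes the scaling moved the split of calls, from 385 higher and 677 lower to 270 and 844 with loess, 233 and 964 with spike-in scaling and 193 and 1127 with median centring; the members had 0 higher and 1 lower call in each of these.

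**Figure D3:**
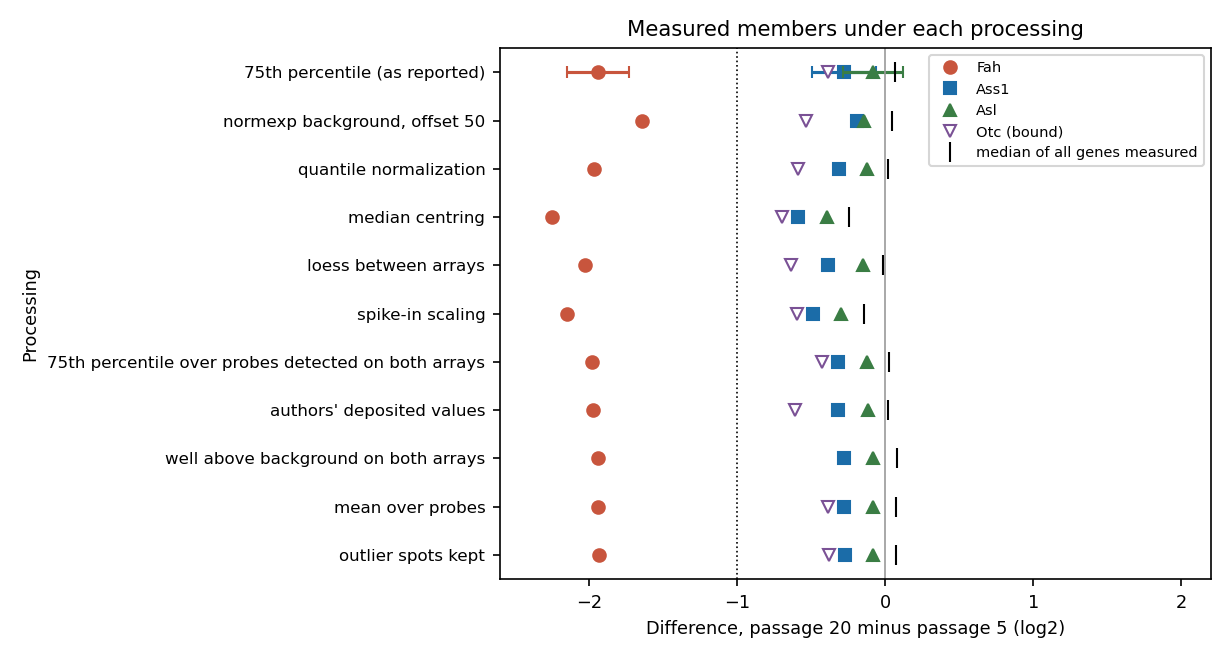
Difference between passage 20 and passage 5 (log2) of Fah, Ass1, Asl and the bound of Otc under each way of processing the arrays that keeps the filter on dim probes. Error bars in the first line are the software's error, black ticks the median of all measured genes, and the dotted line 2-fold lower. Fah stays to the left of the dotted line in every row shown, and the other enzymes stay to its right. With no filter, which is not plotted, the Otc value was -2.65 against a surrogate.

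Most genes that supply the urea cycle were within 2-fold. Of 23 genes for nitrogen supply, carriers and cofactors, 14 were measured. Among the 14, 2 (14.3%) were lower and 0 higher, against 9.00% called over all measured genes. Their median was 0.04 log2, against 0.07 for all measured genes. Glutamine synthetase (Glul), which fixes ammonia in the hepatocytes around the central vein, had signals of 2461 and 707 and was 2.74-fold lower by its brightest probe. Its probes ranged from -1.45 to -0.04 log2, bounds included. The channel gene Aqp9, through which glycerol and urea pass, was at least 4.82-fold lower, and its probes had bounds from -2.27 to -0.29 log2. Glutamate dehydrogenase (Glud1), which releases ammonia from glutamate, differed by 0.44 log2, and the liver-type glutaminase gene Gls2 by -0.83. The aspartate carrier gene Slc25a13 (citrin) differed by 0.18 log2. Nags, whose product activates Cps1, and the ornithine carrier genes Slc25a15 and Slc25a2 lacked the flag on both arrays.

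The measured genes for other uses of arginine and ornithine were within 2-fold. Of 24 genes, 20 were measured and 0 were called different, against 9.00% of all measured genes. With 20 genes a count of 0 cannot be set apart from that share. The differences of the 20 ran from -0.68 to 0.50 log2, with a median of -0.05. Ornithine decarboxylase (Odc1), which starts polyamine synthesis, differed by -0.13 log2 (its other probe by -0.38), with signals of 77289 and 55525. Ornithine aminotransferase (Oat) differed by -0.08 log2. None of the nitric oxide synthase genes Nos1, Nos2 and Nos3, which use arginine, was well above background.

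Genes for making tyrosine and for its other uses were also measured in part. The cofactor recycling genes Pcbd1 and Qdpr were measured on both arrays and differed by 0.36 and 0.35 log2. Of the 16 genes of this list, 12 were measured and 0 were called different, against 9.00% of all measured genes. With 12 genes a count of 0 cannot be set apart from that share. The median of the 12 was 0.21 log2. Their range was from -0.71 (Ddc, an aromatic amino acid decarboxylase) to 0.57 (Pts, an enzyme of cofactor synthesis).

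**Figure D4:**
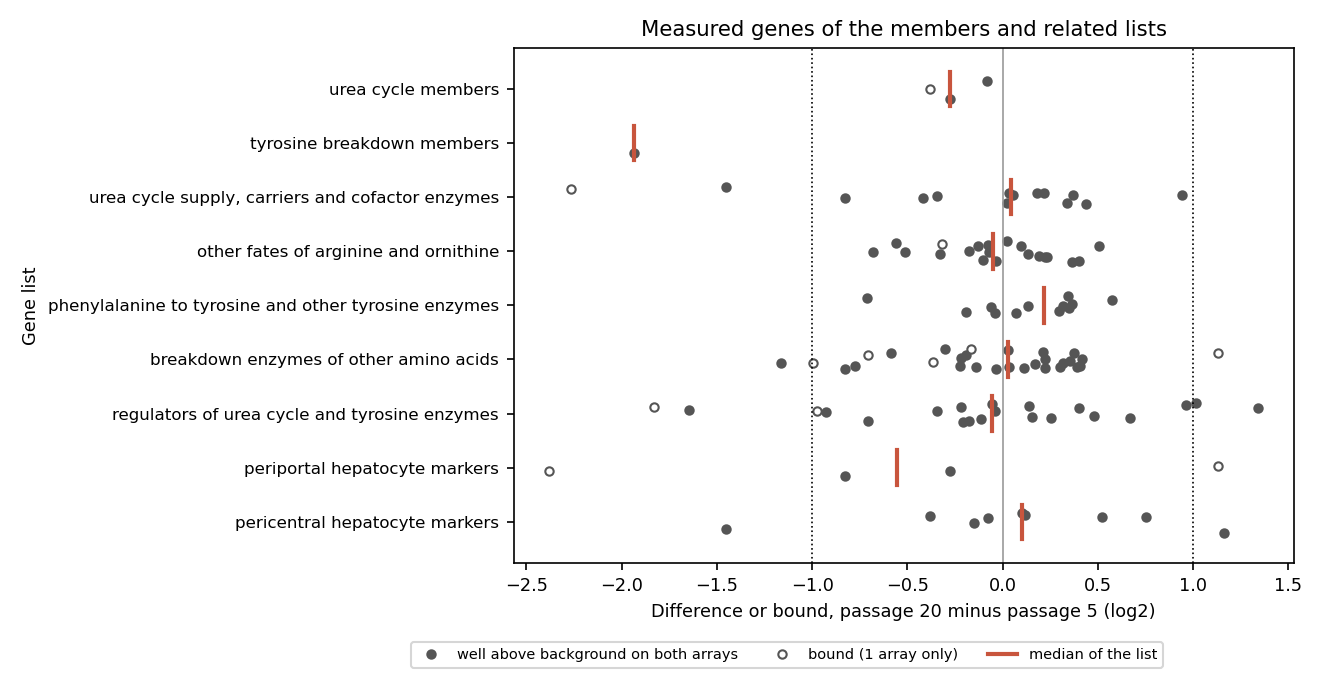
Difference or bound between passage 20 and passage 5 (log2) of each measured gene of the members and of the related gene lists, with the list median in red. Dotted lines mark 2-fold. Fah, the single measured member of the tyrosine breakdown group (Gstz1 is plotted with the list on making tyrosine), lies past 2-fold, while every measured gene of the 2 lists on the other fates of arginine and ornithine and on making tyrosine lies within it. Of all measured genes, 9.00% were called at least 2-fold different.

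Breakdown enzymes of other amino acids were likewise measured in part, with 29 of 52 genes on the array. Of these, 1 was higher and 1 lower (6.90%, against 9.00% of all measured genes), and the median over the 29 was 0.03 log2. Serine dehydratase (Sds) was at least 2.18-fold higher at passage 20, with signals of 26.4 and 187. Bckdha, a subunit of the branched-chain keto acid dehydrogenase, was 2.24-fold lower, and its probes ranged from -1.66 to -1.16 log2. The hepatocyte enzymes Tdo2, which opens the ring of tryptophan, and Hal, which starts histidine breakdown, were not well above background.

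Transcription factors and receptors known to act on these enzymes were mostly present. Of 27 genes, 21 were measured. At passage 20, 2 of them were higher and 2 lower, and the median over the 21 was -0.06 log2. Hnf4a differed by -0.21 log2 (probes from -0.21 to 0.52), the bile acid receptor gene Nr1h4 by -0.35 and Cebpb by -0.06. The glucocorticoid receptor gene Nr3c1, whose ligand induces Tat, differed by 0.14 log2, with probes from 0.08 to 0.82. Cebpa, a factor of hepatocyte maturation, had signals of 25.3 and 22.5 and was not well above background, nor was the glucagon receptor gene Gcgr.

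The 4 regulators past 2-fold lay on both sides. Ppargc1a, a coactivator of fasting metabolism, was 3.13-fold lower, with signals of 1016 and 255 and probes from -1.64 to -1.17 log2, bounds included. Creb3l3, a liver factor of the fasting and stress response, was at least 3.56-fold lower. Nr2f2 was 2.54-fold higher, with probes from 1.01 to 1.34 log2. Prox1, a factor of early liver growth, was 2.02-fold higher by the 1 of its 3 probes that was measured, with dim signals of 126 and 200.

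Genes that mark the position of hepatocytes along the lobule were measured only in part, on the side of the urea cycle and on the other. Of 12 periportal genes on the array, Cps1, Ass1 and Arg1 among them, 4 were measured, with 1 higher (Sds) and 1 lower (Aldh1b1, at least 5.21-fold). Of 16 pericentral genes 9 were measured, with 1 higher (Lgr5, 2.24-fold, probes from -0.73 to 1.16 log2) and 1 lower (Glul). The called shares of the periportal and pericentral lists, 50% and 22.2%, rest on 4 and 9 genes. Over all measured genes the share was 9.00%. The 7 pericentral genes that lacked the flag were Cyp2e1, Cyp1a2, Rhbg, Slc1a2, Cyp27a1, Gulo and Slc22a3. The Wnt target Axin2 differed by 0.12 log2.

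Markers of other cells also differed between the arrays. Over all measured genes, 9.00% were called at least 2-fold different, and the lists that follow hold only 1 to 8 measured genes each. Of 8 kidney and gut epithelial markers, 5 were measured and 4 of these were lower. Guca2a was 12.3-fold lower, with signals of 5450 and 348, Lgals4 2.42-fold, Cdx2 2.32-fold and Fabp2 at least 2.61-fold. The summed signal of the 8 was 204950 at passage 5 and 84803 at passage 20. Slc34a1, Lrp2 and Umod, the kidney genes of that list, were not well above background. Of 12 macrophage and leukocyte markers, 5 were measured, with 1 higher (Cd14) and 1 lower (Chil3, at least 3.98-fold). The summed signal of that list, 4991 and 8168, is mostly that of Cd14 (3484 and 7304). Cd68 had 481 and 478, and the pan-leukocyte gene Ptprc was not well above background. The endothelial list had 1 of 8 measured (Egfl7, lower; summed signal 2306 and 724). The stellate and fibroblast list had 2 of 9 measured, and 1 was lower: the matrix gene Dcn, by at least 15.9-fold, with signals of 1918 and 30.8. Its summed signal, 31423 and 21749, is mostly that of the brightest Acta2 probe (29241 and 21482). Acta2 had 2 of 5 probes measured, and these ranged from -3.11 to -0.10 log2, bounds included. The erythroid list had 2 of 5 measured, and 1 was lower (Tfr2, at least 3.54-fold; summed signal 690 and 297). Of 9 biliary markers, 8 were measured and 1 was higher. Their summed signal, 286434 and 282530, joins opposite differences: Spp1 (osteopontin) had signals of 25091 and 134694 and was 6.83-fold higher, and Krt19 had 220953 and 121549. Summed signals are not scaled between the arrays; after scaling, the sums differed by -0.93 log2 for kidney and gut epithelium, 1.06 for leukocytes, -1.33 for endothelium, -0.18 for stellate cells and fibroblasts, -0.87 for erythroid cells and 0.33 for biliary cells. Their part in the Fah difference was not tested.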

How the data were processed

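Total RNA of hepatoblasts was amplified, given a Cy3 label and read on Agilent mouse arrays with 1 colour, per the labels' protocols. The deposited intensity was made by the authors with Agilent Feature Extraction 10.7.3.1: background-subtracted, detrended and replaced by a surrogate where it did not exceed noise, per the file headers. The 2 arrays shared a slide and a scan. The authors also deposited log2 values with the same distribution on both arrays (median 6.31); no source used here states their normalization.

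Of 43379 gene spots 0 were saturated, and outlier spots (73 and 69) were left out. Log2 signals were averaged per probe and each array's 75th percentile (signals of 1085 and 853) was subtracted. A probe was well above background if most of its spots were: 18738 probes at passage 5 and 18969 at passage 20. Probes were named through RefSeq (GRCm38.p6): 27651 by accession, 5592 by symbol, 470 by an older symbol and 7445 not at all. A gene took its brightest probe. Where 1 array was dim, the bound is the bright value minus the dim one, the latter raised where needed to the smallest flagged value of that array. Called means past 2-fold. Precision is limited by 1 array per passage. Alternatives used limma 3.58.1 and Python 3.11.15, and the steps were tested on simulated data.

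Named genes are all members, set genes of each list whatever their values, and up to 4 per list past 2-fold; some genes that this rule takes are left out of the text, and other genes named within lists were chosen after their values were seen. With 2 arrays no likeness of pattern across samples is defined. Members and lists were chosen with earlier results of these data known.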

Additional observations from a re-analysis of the deposited data

How the results depend on the processing

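The count of members past 2-fold (1, Fah) was the same under 11 of the 13 alternatives. It was 0 at a 4-fold threshold and 3 with no filter on dim probes, where Otc and Arg2 joined through values at or near noise. The members' median difference, -0.33 log2, became -0.64 with median centring, -0.54 with spike-in scaling and 0.15 with no filter, which lets in 6 members that were not measured. The count over all named genes, 1062, was 650 with normexp, 694 with both arrays above background, 2572 with no filter, 2618 at 1.5-fold and 220 at 4-fold. No paired analysis was possible because each passage has 1 array. Signal over background limits 6 of the 10 members to the statement that they were not measured, and no replicate can be left out.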
